A study of Oryza sativa with 18 samples.

Results

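The 1050 entries described here are the genes that the authors called different between csa mutant and wild type embryos of rice (Oryza sativa) after 3 h of imbibition, the uptake of water that starts germination. They are all rows of the deposited table for that time, of 3523 rows in the 3 tables of the series, and they stand for 1049 gene accessions because LOC_Os09g28400 fills 2 rows. The csa group carries a mutation in CSA (CARBON STARVED ANTHER); the labels name the mutant but not its allele, and give the wild type as line 9522. Both groups were dehulled, surface-sterilized seeds held at 28 °C with 16 h light and 8 h dark in diluted Murashige and Skoog medium, and each group held 3 samples. RNA of 5 seeds went into each extraction, with the tissue labelled as embryo. The labels do not say whether the 3 samples of a group came from separate plants or seed lots, so p-values reflect how far these samples vary, and that variation may be technical. Total library depth is unknown, because the counts of the other genes were not used here.

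CSA encodes an R2R3 MYB transcription factor known in rice for its part in sending sugar to the anther. In a dry cereal seed the embryo holds transcripts and proteins laid down during maturation, such as storage globulins, oleosins and late embryogenesis abundant (LEA) proteins, which protect cells during drying. During imbibition these stores are turned over, hydrolases such as alpha-amylase are made in the scutellum and aleurone, and abscisic acid and gibberellin act against each other on the pace of the change. CSA itself (LOC_Os01g16810) was not among the entries at 3 h, so the table gives no reading of the targeted gene.

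Of 21397 genes that the authors tested at 3 h, a number recovered from the ranks in their table, 4.91% were called. The call needed a false discovery rate (FDR) of at most 0.05 and an absolute log2 fold change of at least 1. Higher calls made up 3.49% of the genes tested and lower calls 1.42%, or 746 and 304 entries. These values chose the entries, so the sizes below describe them and do not test them again. Log2 ratios are csa over wild type, from mean counts per group after dividing by the library scaling recovered from the table, with a standard error (SE) over 3 and 3 libraries.

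Most differences were moderate. The absolute log2 ratio was under 1.5 in 645 entries, between 1.5 and 2 in 217 and at least 2 in 188, of which 146 were higher and 42 lower. The median was 1.41 among the higher and -1.24 among the lower entries. The csa and wild type libraries did not overlap in 1009 entries and overlapped in 41, which follows largely from the calling itself. The share without overlap over all genes tested is unknown, because only the 4.91% called are listed. Many genes named below were also picked on the condition of no overlap, so its absence in them was set in advance. Just inside the fold limit lay LOC_Os06g04390 at 1.00 and LOC_Os02g47650, similar to a pathogen-induced protein, at -1.0004; genes just outside it were not used here. The entry with the largest FDR, 0.0495 in the authors' deposited table, was LOC_Os06g20760, with 28, 26 and 13 csa reads against 10, 10 and 4. The refit lost the first of these without csa replicate 2 or any 1 wild type library, at 0.819 to 1.04. It lost the second without csa replicate 2 or 3 or wild type replicate 1 or 3, at -0.87 to -0.999, and the last without csa replicate 1 or 2 or wild type replicate 3, at 1.22 to 1.39.

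**Figure D1:**
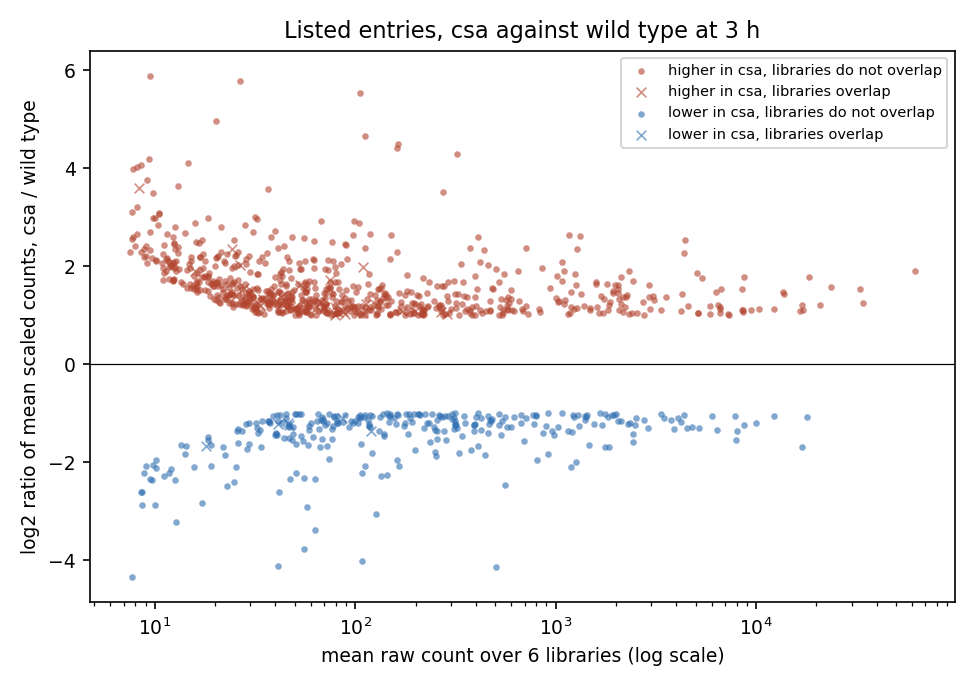
Log2 ratio of mean scaled counts (csa over wild type, vertical axis) against the mean raw count over the 6 libraries (log scale, horizontal axis) for the listed entries at 3 h; the 2 entries with no wild type read have no ratio and are not drawn. Dots mark the entries whose 3 csa and 3 wild type libraries do not overlap and crosses the 41 that do; no point lies between -1 and 1 because only called genes are listed.

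The csa libraries varied more among themselves than the wild type libraries. The median coefficient of variation of higher entries was 31.0% in csa and 20.1% in wild type, and of lower entries 29.9% and 15.4%. The second csa library stood furthest from its group. It held the highest csa count in 514 of the 746 higher entries and the lowest in 180 of the 304 lower entries. A refit of the entries with edgeR's quasi-likelihood test kept 1003 calls with all libraries, 655 without this library and 679 without the third wild type library. Leaving out a library also leaves fewer samples, and how far each accounts for the lower count was not tested.

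Sorted by annotation text into 40 lists, 516 entries fell into at least 1 list. Beside 71.0% higher and a median log2 ratio of 1.20 over all entries, the lists of storage and oil body, lipid transfer, chitinase and pathogenesis, histone and chromatin, and photosynthesis genes held higher entries and no lower one. Glycosyltransferases, glutathione S-transferases, peptidases, pentatricopeptide repeat proteins and auxin genes each had more lower than higher entries. In the refits, glycosyltransferases kept 5 higher and 5 lower calls without csa replicate 1 and 6 and 5 without csa replicate 2, and peptidases 3 and 3 without wild type replicate 1. Where leaving out 1 library moved a count by over 1.5 times, the calls kept are given with the list. No list was tested, since the same contrast chose the entries. Each split given below reads against the 71.0% higher over all entries.

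**Figure D2:**
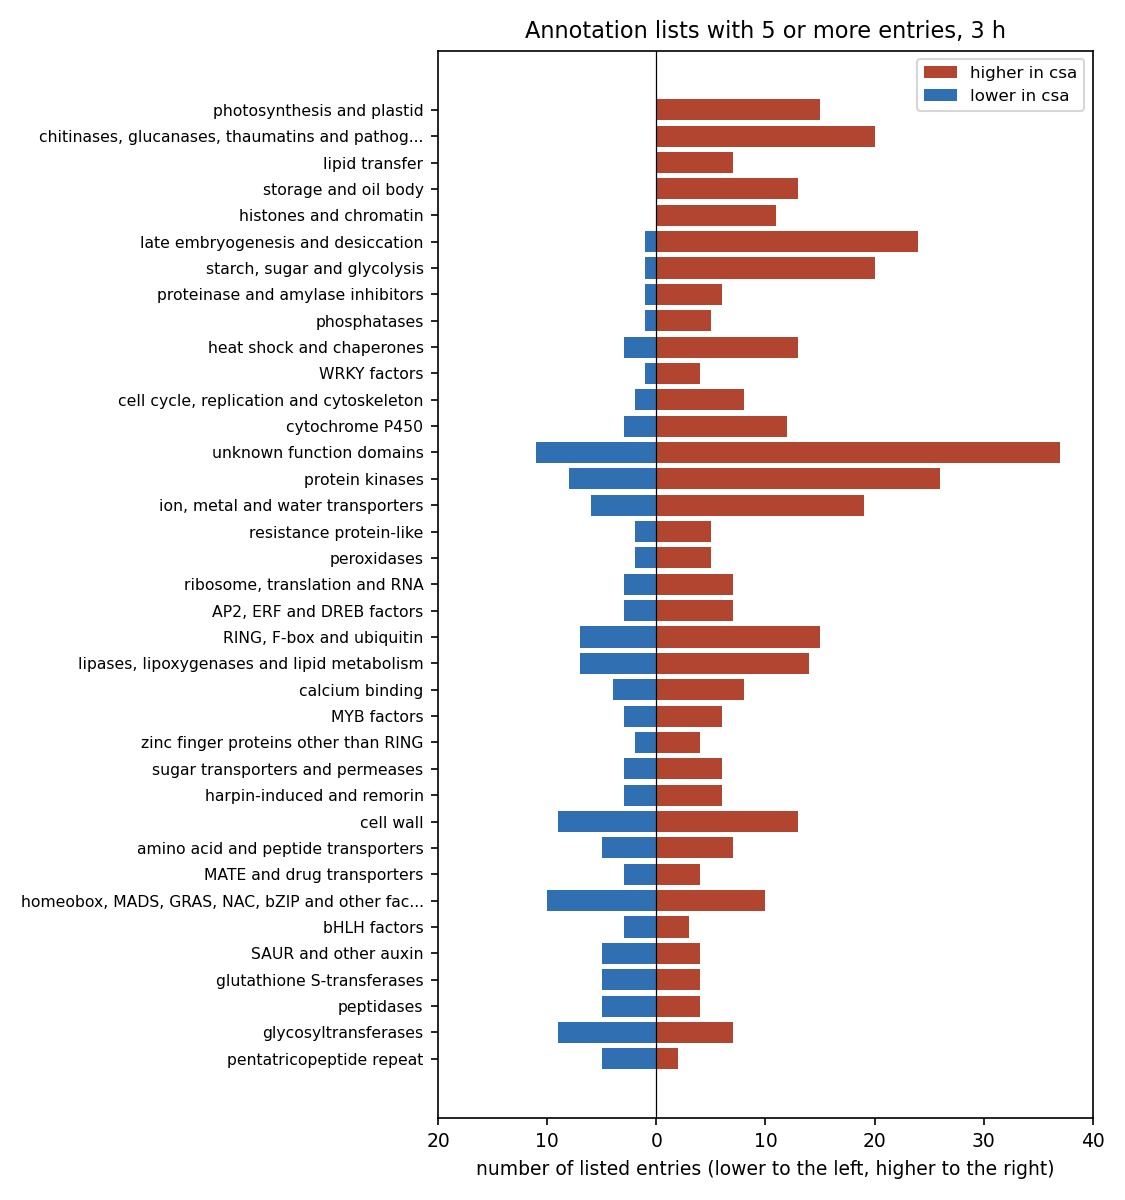
Number of entries higher in csa (right of 0) and lower in csa (left of 0) at 3 h in each annotation list with 5 or more entries, ordered by the share that is higher. Photosynthesis genes, at the top, have 15 higher and 0 lower entries, and pentatricopeptide repeat genes, at the bottom, 2 higher and 5 lower.

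Among signalling genes, 26 protein kinase entries were higher and 8 lower in csa, with a median log2 ratio of 1.28. That is 76.5% higher, against 71.0% over all entries. The refit kept 17 of the higher calls without csa replicate 2 or wild type replicate 2. Of the lower calls it kept 4 and 5 without csa replicates 1 and 2, and 3 and 4 without wild type replicates 1 and 3. A kinase gene at the start of chromosome 1, LOC_Os01g04409, had 276, 254 and 305 reads in the csa libraries and 76, 87 and 86 in wild type. The groups stood well apart with little spread, at a log2 ratio of 1.82 ± 0.08 (SE, n = 3 and 3) and an FDR of 1.85e-15 in the authors' deposited table. SAPK3 (LOC_Os10g41490), a kinase of the SnRK2 family that acts in osmotic stress and abscisic acid signalling, had 274, 569 and 476 reads against 228, 197 and 157, a log2 ratio of 1.26. It was taken from the kinase list after its values were seen. Lower in csa was CIPK29 (LOC_Os07g48090), of a family of kinases that calcium-sensing CBL proteins switch on. Its counts of 668, 538 and 684 lay below the wild type counts of 2069, 1472 and 1520, at -1.35 ± 0.20.

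Of 6 phosphatase entries 5 were higher; the refit kept 3 and 2 of these without csa replicates 1 and 2, and 2, 3 and 3 without wild type replicates 1, 2 and 3. The protein phosphatase 2C gene LOC_Os09g15670, PP2C68 in RefSeq, belongs to a class of enzymes several of which damp abscisic acid signalling. It had 1651, 3120 and 2416 reads in csa and 564, 789 and 1035 in wild type, so that the lowest csa library exceeded the highest wild type one, at 1.68 ± 0.36. The lower member, a dual specificity phosphatase gene (LOC_Os01g53710), stood at -1.29 ± 0.35. An acid phosphatase gene (LOC_Os01g09540) leaned on the second csa library: its log2 ratio was 2.01 with that library and 1.20 without it, where the edgeR refit lost the call.

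Genes of the ubiquitin system, which marks proteins for breakdown, had 15 higher and 7 lower entries, or 68.2% higher against 71.0% over all entries. The refit kept 3 of the lower calls without csa replicate 2 or wild type replicate 1, and 4 without wild type replicate 3. The RING finger gene LOC_Os09g30160 had 1410, 1891 and 1554 reads in csa against 503, 563 and 525, at 1.69 ± 0.16. No csa library came near the wild type range, and the FDR in the authors' deposited table was 6.91e-19. A UBX domain gene (LOC_Os09g30411), of a type that binds the protein-unfolding ATPase CDC48, was also higher at 2.11 ± 0.31. On the lower side stood a gene similar to Spotted leaf 11 (LOC_Os03g16824), in rice a ligase that restrains cell death, at -1.06 ± 0.21; without the second csa library it stood inside the fold limit at -0.90, and without the first wild type library the refit also lost the call, at -1.02.

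Among transcription factors, the AP2, ERF and DREB list had 7 higher and 3 lower entries (70% higher). WRKY genes had 4 and 1 (80%) and MYB genes 6 and 3 (66.7%). These shares lie near the 71.0% higher over all entries. The bHLH genes had 3 higher and 3 lower entries. The list of homeobox, MADS, GRAS, NAC, bZIP and other factors had 10 and 10. These counts are small and leaned on single libraries. Without csa replicate 2 the refit kept 4 higher AP2, ERF and DREB calls, 1 higher WRKY call, 1 lower MYB call, 1 higher bHLH call, and 4 higher and 4 lower calls of the last list. Without wild type replicate 3 it kept 4, 1, 1, 0, and 6 and 6 of the same. Without csa replicate 1 it kept 1 lower AP2, ERF and DREB call, 1 lower MYB call and 6 lower calls of the last list. Without wild type replicate 1 it kept 2 higher WRKY, 1 lower MYB and 1 higher bHLH call and 6 lower calls of the last list, and WRKY also fell to 2 higher calls without csa replicate 3 and bHLH to 1 without wild type replicate 2. The zinc finger list held SDR4 (LOC_Os07g39700), a regulator of seed dormancy in rice, with 465, 955 and 450 csa reads against 121, 136 and 129.

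The RAV-like gene LOC_Os01g04800, of a factor family with AP2 and B3 domains, was among the lower entries of largest size. It had 464, 250 and 592 reads in csa against 1952, 1783 and 2091, with no overlap and a log2 ratio of -2.09 ± 0.32. WRKY76 (LOC_Os09g25060), which in rice represses genes of the defence against blast fungus, had 427, 514 and 431 against 1554, 1033 and 1208, at -1.39 ± 0.22. MYB2 (LOC_Os03g20090), linked to salt, cold and drought tolerance in rice, had 455, 511 and 560 against 1144, 984 and 1727, at -1.26 ± 0.26. Both factors were lower in every csa library than in every wild type library, which was a condition for naming them.

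A Dof-like gene (LOC_Os02g47810), of a plant family of zinc finger factors, differed with little spread. Its 429, 344 and 403 csa reads stood against 968, 902 and 978, at -1.21 ± 0.08. A bHLH gene (LOC_Os06g44320) was as tight, at -1.34 ± 0.08, and a GATA factor gene (LOC_Os02g56250) stood at -1.28 ± 0.29. Higher factors included a gene similar to Blind (LOC_Os01g09590), in tomato a MYB regulator of side shoots, at 1.63 ± 0.45. The I-box binding factor-like gene LOC_Os01g09640 stood at 1.41 ± 0.23. A DREB2-like gene (LOC_Os06g11860), of the factors that bind drought response elements, had 168, 109 and 181 reads against 60, 66 and 34, at 1.58 ± 0.33, and went the other way at 6 h.

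Of 3 heat shock factor entries 2 were higher and 1 lower, near the 71.0% higher over all entries. HSFC2A (LOC_Os02g13800) was higher, with 1420, 2253 and 2306 reads against 289, 386 and 335, at 2.65 ± 0.24. HSFB1 (LOC_Os09g28354), in a class that often acts as repressor, had 248, 258 and 353 reads against 662, 712 and 633, at -1.15 and again without overlap. It was named after its values were seen. Among heat shock proteins and chaperones 13 entries were higher and 3 lower. A gene similar to heat shock protein 70 (LOC_Os03g16860), which helps other proteins fold, was lower, with 12779, 10983 and 9693 reads against 24992, 22668 and 26309, at -1.07 ± 0.13. That value lies near the fold limit, and the refit lost the call without csa replicate 3 or wild type replicate 1 or 3, at -0.97, -1.05 and -1.03.

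The seed maturation genes that were called were nearly all higher in csa, and those not called cannot be read. The LEA and desiccation list had 24 higher entries and 1 lower, with a median log2 ratio of 1.43, and the storage and oil body list 13 higher and 0 lower, with a median of 1.15; the refit kept 8 of the 13 without wild type replicate 2. The desiccation-related gene LOC_Os05g05920 had 269, 438 and 233 reads in csa and 16, 16 and 12 in wild type, and stood at 4.498 ± 0.34. The dehydrin genes RAB16D (LOC_Os11g26750) and RAB21 (LOC_Os11g26790), whose products bind water and membranes in drying cells, stood at 2.33 ± 0.32 and 1.58 ± 0.27. RAB21 had 23831, 41775 and 39400 reads against 13706, 11058 and 12172. The exception was LOC_Os01g21250, a group 3 LEA gene, with 823, 923 and 1633 reads against 2405, 1912 and 2893, at -1.02; it was named because it is the lone lower member. Its call was lost without csa replicate 1 or 2 or wild type replicate 1 or 3, at -0.832 to -1.006.

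The storage globulin gene LOC_Os03g46100 had the highest raw counts of the higher entries, with 58462, 120404 and 113059 reads in csa and 22692, 23352 and 36404 in wild type. A related globulin gene (LOC_Os08g03410) had 18605, 28601 and 36825 against 5010, 5158 and 15674, at 1.78 ± 0.64, and passed with an FDR of only 0.0416 in the authors' deposited table. The third wild type library came close to the lowest csa library, and the refit gave 2.53 without it. The oleosin family gene LOC_Os06g27910, coding for a coat protein of oil bodies, was higher by 1.10 ± 0.12 on the log2 scale, or 1.03 without wild type replicate 2, where the refit lost the call.

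Listed markers of endosperm moved in the same direction as these lists. Only called genes could be summed, so the separation of the sums below was set by the calling. Markers that were not called are absent from them. The 5 listed glutelin, prolamin and 11-S storage genes were all higher in csa, and their summed scaled counts ran from 8778 to 13102 in csa and from 4258 to 4522 in wild type. The 8 listed embryo markers (oleosins, globulin 1 genes and 1-Cys peroxiredoxin) were all higher as well, at 97788 to 188256 against 39257 to 62959. Much of that sum came from the globulin gene LOC_Os03g46100, with a mean of 100273 in csa and 26740.5 in wild type. The 11 listed alpha-amylase and lipid transfer entries, markers of aleurone and scutellum, summed to 18754 to 29358 against 7392 to 9295. Starch synthases and branching enzymes of the endosperm had 0 entries, so their levels cannot be read. Fewer cells of a type and less RNA per cell cannot be told apart in such bulk samples, and the part that the mix of tissues played in these results was not tested.

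Chitinases, glucanases, thaumatins and other pathogenesis proteins, which attack fungal walls or are made on infection, were higher in 20 of 20 entries, with a median log2 ratio of 1.69. In the refit 14 of the 20 were kept without csa replicate 2 and 13 without wild type replicate 3. The class II chitinase gene LOC_Os05g04690 had 143, 368 and 134 reads in csa and 14, 6 and 7 in wild type. Its log2 ratio of 4.66 ± 0.68 was 3.99 without the second csa library. A family 18 glycosyl hydrolase gene (LOC_Os05g15770) had 116, 204 and 197 reads against 19, 23 and 30, at 2.93 ± 0.31, with no overlap.

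Resistance protein-like genes were higher in 5 entries and lower in 2, near the 71.0% higher over all entries. Of the higher calls the refit kept 2 without csa replicate 1 and 3 without csa replicate 2 or wild type replicate 2 or 3, and of the lower ones 1 without csa replicate 1 or wild type replicate 1. A candidate of this class, LOC_Os03g60810, had 195, 234 and 121 reads against 35, 27 and 17, at 2.87 ± 0.41, whereas the NBS-LRR gene LOC_Os04g43440, coding for an intracellular immune receptor type, was lower at -1.09 ± 0.28. The refit lost this last call without the first csa or the first wild type library, at -0.95 and -0.96. Inhibitors of proteinases and amylases were higher in 6 entries and lower in 1. An alpha-amylase/trypsin inhibitor gene (LOC_Os03g45960) had 760, 1015 and 593 reads against 243, 165 and 243, at 1.94 ± 0.30. The lower member, similar to the maize wound-induced gene WIP1 (LOC_Os01g63980), had 252, 255 and 454 reads against 875, 799 and 790.

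Peptidases, which cut proteins, were lower in 5 of 9 entries. The refit kept 3 of the 5 without csa replicate 2 or wild type replicate 1, and 2 of the 4 higher calls without csa replicate 1 or 2 or wild type replicate 2. A pair of subtilisin-like genes went in opposite directions. LOC_Os03g55350 had 5764, 3138 and 4152 reads in csa against 11705, 11435 and 12084, at -1.37 ± 0.24. LOC_Os03g40830 had 182, 197 and 192 against 68, 70 and 70, at 1.53 ± 0.05, and both genes were without overlap. The aspartic peptidase gene LOC_Os09g30414 was higher at 1.35 ± 0.20.

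**Figure D3:**
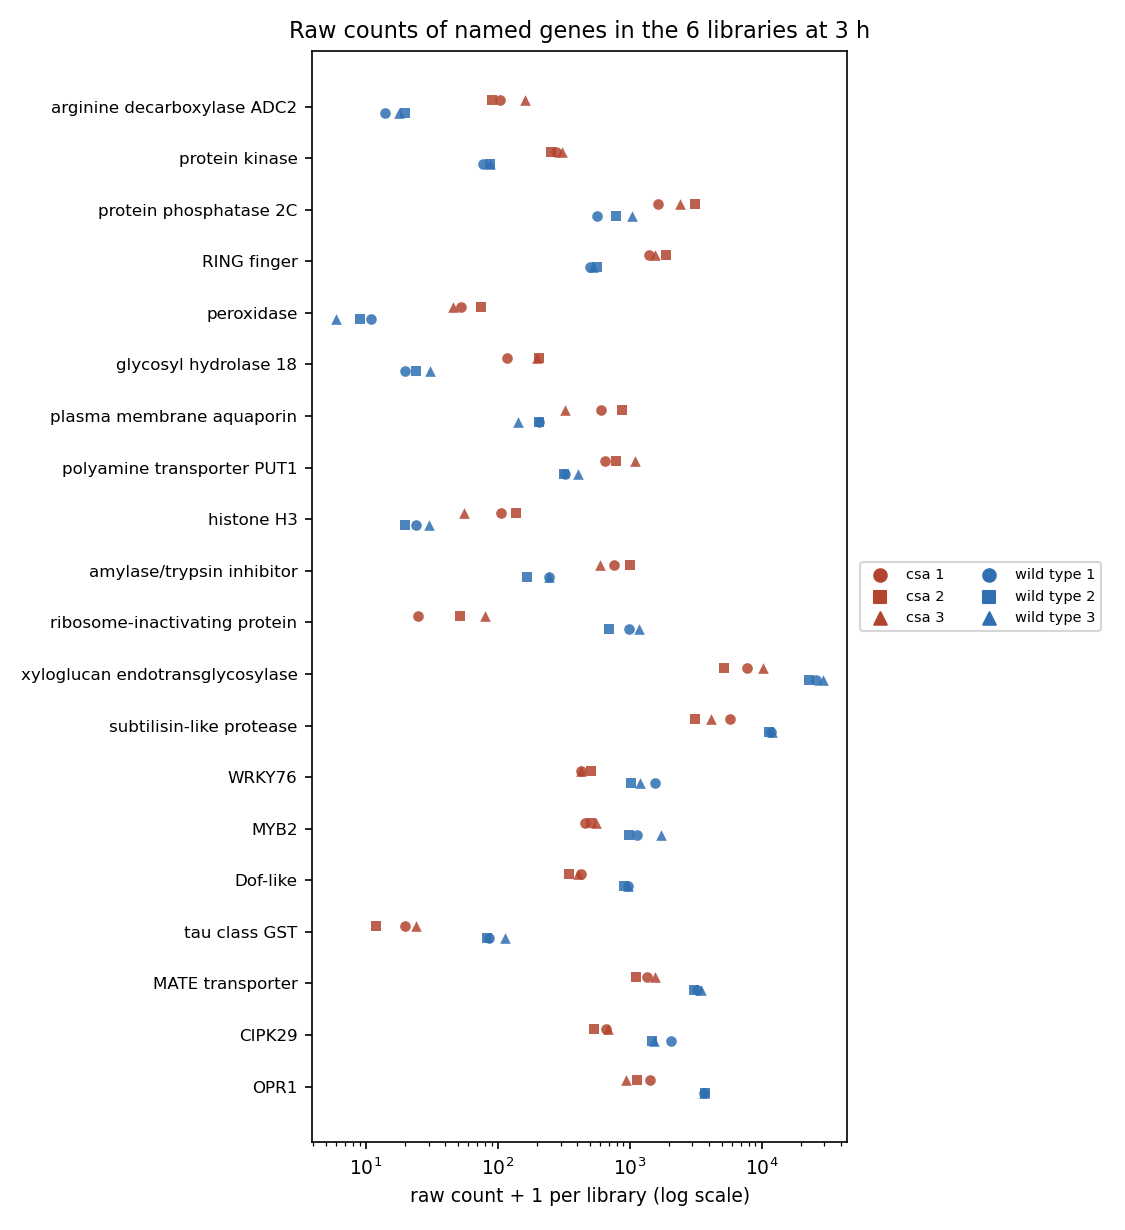
Raw count plus 1 (log scale, horizontal axis) of 20 named genes in each of the 6 libraries at 3 h, with csa in red, wild type in blue and the marker shape giving the replicate number. The upper 10 genes are higher and the lower 10 lower in csa, and the csa and wild type libraries of each gene do not overlap. Lack of overlap was a condition in some of the rules by which they were named.

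The list of starch, sugar and glycolysis genes was higher in 20 of 21 entries, with a median log2 ratio of 1.43. Without wild type replicate 2 the refit kept 12 of the 20. Both rows of LOC_Os09g28400 count among the 20. A gene for the pyrophosphate-dependent phosphofructokinase (LOC_Os09g30240), a step of glycolysis, had 2799, 4267 and 2047 reads in csa and 1170, 1064 and 890 in wild type, at 1.62 ± 0.36. The gene of pyruvate orthophosphate dikinase, PPDKB (LOC_Os05g33570), which makes phosphoenolpyruvate from pyruvate, had 412, 692 and 670 against 165, 212 and 272, at 1.53 ± 0.30. An SNF4-like gene (LOC_Os02g06410), for a subunit of the energy-sensing SnRK1 kinase, stood at 1.43 ± 0.29. The lower entry was a phosphoenolpyruvate carboxylase gene (LOC_Os01g02050), named as the exception, with 13, 10 and 14 reads against 35, 43 and 41.

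Alpha-amylase, which breaks down starch, was represented by entries with wide spread among the csa libraries. The pair under LOC_Os09g28400 carried the same locus symbol but different gene numbers, which RefSeq pairs with AMY3D and AMY3A. The first had 532, 293 and 103 reads against 11, 11 and 24, at 4.41 ± 0.69, and the second 529, 1201 and 110 against 36, 35 and 30, at 4.28 ± 0.77. Without the first csa library the first entry stood at 3.78 in the refit, and without the second csa library the second entry stood at 3.29. Which of the amylase genes each row counts cannot be told from the table, and close copies may share reads. AMY3E (LOC_Os08g36900) had 1658, 4291 and 801 reads against 190, 589 and 402, and its log2 ratio of 2.62 ± 0.81 was 1.70 without the second csa library. In rice, AMY3D and AMY3E are known to be switched on by sugar shortage.

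Arginine decarboxylase ADC2 (LOC_Os04g01690), which opens a route to polyamines, was higher in csa with 104, 90 and 160 reads against 13, 19 and 17. The log2 ratio was 2.93 ± 0.29, and no csa library reached down to the wild type range. The polyamine uptake transporter gene PUT1 (LOC_Os02g47210) was higher as well, with 653, 785 and 1094 reads against 325, 319 and 409, at 1.34 ± 0.25.

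Cytochrome P450 genes, whose products oxidize hormones and secondary compounds, had 12 higher and 3 lower entries. The refit kept 6 and 1 of these without csa replicate 2 and 5 and 1 without wild type replicate 3, and 1 lower call without csa replicate 3. A CYP90D-like gene (LOC_Os05g11130), of a group active in brassinosteroid synthesis, had 54, 54 and 18 reads against 8, 7 and 8, at 2.53 ± 0.42. The lower gene LOC_Os06g46680 stood at -1.09 ± 0.26 and at -0.87 without the second csa library. Viviparous-14 (LOC_Os12g42280), an enzyme of abscisic acid synthesis that cleaves carotenoids, had 209, 337 and 224 reads against 44, 42 and 45, at 2.64 ± 0.25.

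Glycosyltransferases, which attach sugars to hormones and other small molecules, were higher in 7 and lower in 9 entries, with a median log2 ratio of -1.08. The refit kept 5 of the lower calls without csa replicate 1 or 2, beside 5 and 6 of the higher ones, and 4 higher calls without wild type replicate 3. A gene similar to indole-3-acetate beta-glucosyltransferase (LOC_Os09g34230), an enzyme that joins auxin to glucose, had 4632, 5044 and 5261 reads against 14776, 10555 and 11955, at -1.25 ± 0.17. A family 8 glycosyltransferase gene (LOC_Os02g41520) stood at -1.23 ± 0.20. Of 9 glutathione S-transferase genes, whose products detoxify reactive compounds, 5 were lower. A tau class member (LOC_Os10g38340) had 19, 11 and 23 reads against 85, 82 and 112, at -2.33 ± 0.31.

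Peroxidases, which use hydrogen peroxide in wall building and defence, were higher in 5 and lower in 2 entries, near the 71.0% higher over all entries. Of these the refit kept 3 and 1 without csa replicate 2, and 1 lower call without csa replicate 1. LOC_Os02g06630 had 52, 74 and 45 reads against 10, 8 and 5, at 2.97 ± 0.38. The cationic peroxidase gene LOC_Os01g16450 had 1699, 1336 and 1944 against 4231, 3458 and 3874, at -1.15 ± 0.17. Each csa library lay outside the wild type range in both genes, which was a condition for naming them.

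The 12-oxophytodienoate reductase genes, whose family includes an enzyme of jasmonate synthesis, were lower in 3 of 3 entries, of which the refit kept 1 without csa replicate 3. OPR1 (LOC_Os06g11290) had 1420, 1139 and 936 reads against 3687, 3729 and 3689, at -1.60 ± 0.17. Lipid genes as a whole had 14 higher and 7 lower entries; the refit kept 9 higher calls without csa replicate 1, 8 without wild type replicate 1, and 7 higher and 4 lower ones without wild type replicate 3. A triacylglycerol lipase gene (LOC_Os07g39810), for an enzyme that frees fatty acids from stored oil, had 163, 110 and 288 reads against 785, 653 and 680, at -1.85 ± 0.41. A fatty acid elongase gene (LOC_Os02g11070) stood at -1.39 ± 0.27. All 3 of these named lipid genes were lower and without overlap. The 14 higher entries of the list reached a log2 ratio of 2.51. Lipid transfer proteins were higher in 7 of 7 entries, led by LOC_Os05g47730 at 3.51 ± 0.35.

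An isopenicillin N synthase family gene (LOC_Os03g42130), of the oxygenase superfamily that uses 2-oxoglutarate, was lower with 397, 373 and 683 reads against 2010, 2114 and 1982. Its log2 ratio was -2.002 ± 0.29 and its FDR 2.35e-18 in the authors' deposited table. An alpha/beta hydrolase gene (LOC_Os01g37630) had 44, 44 and 36 reads against 215, 205 and 131, at -2.08 ± 0.24. A tetratricopeptide-like gene (LOC_Os03g06970) had 34, 36 and 62 against 121, 339 and 217, where the wild type libraries themselves differed widely.

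Ion, metal and water transporter genes were higher in 19 and lower in 6 entries, or 76% higher against 71.0% over all entries. Of the higher calls the refit kept 9 without wild type replicate 3. Of the lower calls it kept 2 without csa replicate 1 or wild type replicate 1, and 3 without csa replicate 2 or wild type replicate 3. The plasma membrane aquaporin gene PIP1;3 (LOC_Os02g57720), for a water channel, had 611, 881 and 324 reads against 204, 204 and 142, at 1.80 ± 0.44. A mitochondrial phosphate transporter gene (LOC_Os09g28160) had 173, 166 and 189 against 549, 425 and 548, at -1.46 ± 0.13. Both were without overlap, a condition for naming them, the first with a wide spread in csa and the second with a narrow one.

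Transporters of the MATE and drug type, which export organic compounds, were higher in 4 and lower in 3 entries; of the higher calls 2 were kept without csa replicate 1 or wild type replicate 2 or 3, and 1 without wild type replicate 1. LOC_Os08g37432 had 1346, 1111 and 1568 reads against 3259, 3082 and 3484, at -1.22 ± 0.14, and an antiporter gene (LOC_Os02g58620) had 171, 191 and 85 against 21, 34 and 32, at 2.44 ± 0.38. Amino acid and peptide transporters were higher in 7 and lower in 5 entries. The refit kept 4 and 1 of these without csa replicate 2 and 4 and 3 without wild type replicate 1, and 2 lower calls without csa replicate 1 or wild type replicate 3. YSL12 (LOC_Os04g44320), of a family that carries metal chelates, stood at -1.005 ± 0.29, at the fold limit. Its call was lost without csa replicate 1 or 2 or wild type replicate 1 or 3, at -1.01, -0.79, -0.97 and -0.90.

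Cell wall genes had 13 higher and 9 lower entries, with a median log2 ratio of 1.05. Of the higher calls the refit kept 7 without csa replicate 3 and 6, 7 and 8 without wild type replicates 1, 2 and 3. A xyloglucan endotransglycosylase gene (LOC_Os06g48160), for an enzyme that cuts and rejoins wall polymers, had the highest raw counts of the lower cell wall entries. It had 7714, 5193 and 10325 reads in csa against 25762, 22970 and 29162, at -1.68 ± 0.28 and without overlap. The beta-expansin gene EXPB3 (LOC_Os10g40720), whose product loosens walls, had 0, 5 and 2 reads against 31, 29 and 10, at -3.23 ± 1.00; at these low counts the refit gave -2.61 without csa replicate 1 and -4.34 without csa replicate 2. PGIP-1 (LOC_Os07g38130), an inhibitor of fungal polygalacturonases, was higher with 1986, 2081 and 1970 against 1059, 986 and 813. A Phi-1-like gene (LOC_Os02g52040), known from tobacco cells that resume division after phosphate is returned, had 4067, 2673 and 4989 reads against 11093, 11074 and 13635, at -1.54 ± 0.25.

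Among auxin genes, 4 entries were higher and 5 lower. The refit kept 1 and 2 of the higher calls without csa replicates 1 and 2, and 2 and 1 without wild type replicates 2 and 3. The SAUR genes LOC_Os04g56690 and LOC_Os08g35110, of a family that auxin switches on early, had log2 ratios of -1.96 ± 0.21 and -1.31 ± 0.14. The first had 82, 52 and 57 reads in csa against 240, 288 and 252 in wild type. Calcium-binding genes had 8 higher and 4 lower entries, of which 5 higher calls were kept without csa replicate 3 and 2 lower ones without csa replicate 2. The EF hand gene LOC_Os09g30490 was lower at -1.06 ± 0.11, with 8307, 6469 and 8280 reads against 15952, 16015 and 18558. Without the second csa library it stood at -0.97 and without wild type replicate 3 at -0.99, inside the fold limit.

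Histone and chromatin genes were higher in 11 of 11 entries, with a median log2 ratio of 1.29. The histone H3 gene LOC_Os11g05730 had 105, 138 and 55 reads against 23, 19 and 29, at 2.15 ± 0.41. A histone H4 gene (LOC_Os03g02780) had 1801, 2048 and 1835 against 1187, 753 and 696, at 1.18 ± 0.28, and a histone H2B gene (LOC_Os05g49860) 421, 420 and 447 against 246, 177 and 189. Both calls were lost without wild type replicate 2, at 1.07 and 1.04, and the first also without wild type replicate 3, at 1.03. Such genes have near-identical copies, and the counting of shared reads is not stated, so the split between them is uncertain. Of the 11 calls the refit kept 5 without csa replicate 2 and 6 and 4 without wild type replicates 2 and 3. The list also took in the histone-fold factor gene NF-YB1 (LOC_Os02g49410), known in rice from the endosperm, whose 20, 54 and 72 csa reads overlapped the wild type reads of 22, 18 and 21; it was named after its values were seen. Its call was lost without csa replicate 2 or 3 or wild type replicate 2 or 3, at 0.953 to 1.34.

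Genes of the cell cycle, replication and cytoskeleton were higher in 8 and lower in 2 entries; of the higher calls 4 were kept without csa replicate 3 and 5 without any 1 wild type library. The lower pair was far lower. A delta DNA polymerase-like gene (LOC_Os08g06620), for an enzyme that copies DNA, had 8, 18 and 10 reads against 192, 194 and 227, at -4.004 ± 0.40. A kinesin heavy chain-like gene (LOC_Os01g01570), for a motor protein on microtubules, had 62, 45 and 75 against 275, 247 and 287, at -2.08 ± 0.20. The photolyase gene UVR3 (LOC_Os02g10990), for a repair enzyme of light-damaged DNA, was higher at 1.43 ± 0.17, a call lost without wild type replicate 2, at 1.32.

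Photosynthesis and plastid genes were higher in 15 of 15 entries, with a median log2 ratio of 1.52, and 10 of the 15 were kept in the refit without the second csa library. PSAH (LOC_Os05g48630), a subunit of photosystem I, had 163, 235 and 207 reads against 105, 54 and 48, at 1.62 ± 0.43. The gene of the photosystem II subunit PsbS (LOC_Os01g64960), which dissipates excess light, had 55, 122 and 43 against 21, 14 and 9, at 2.40 ± 0.62, or 1.78 without the second csa library. Pentatricopeptide repeat genes, whose products process organelle RNA, were lower in 5 of 7 entries. Without any 1 library other than csa replicate 3 the refit kept 2 of the lower and 1 of the higher calls. Their lower members were small in size, such as LOC_Os04g51350 at -1.23 ± 0.44 (-1.18 without csa replicate 1 and -0.95 without csa replicate 2, with the call lost in both), and the 3 of them named by the rule lost the call without the second csa library.

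**Figure D4:**
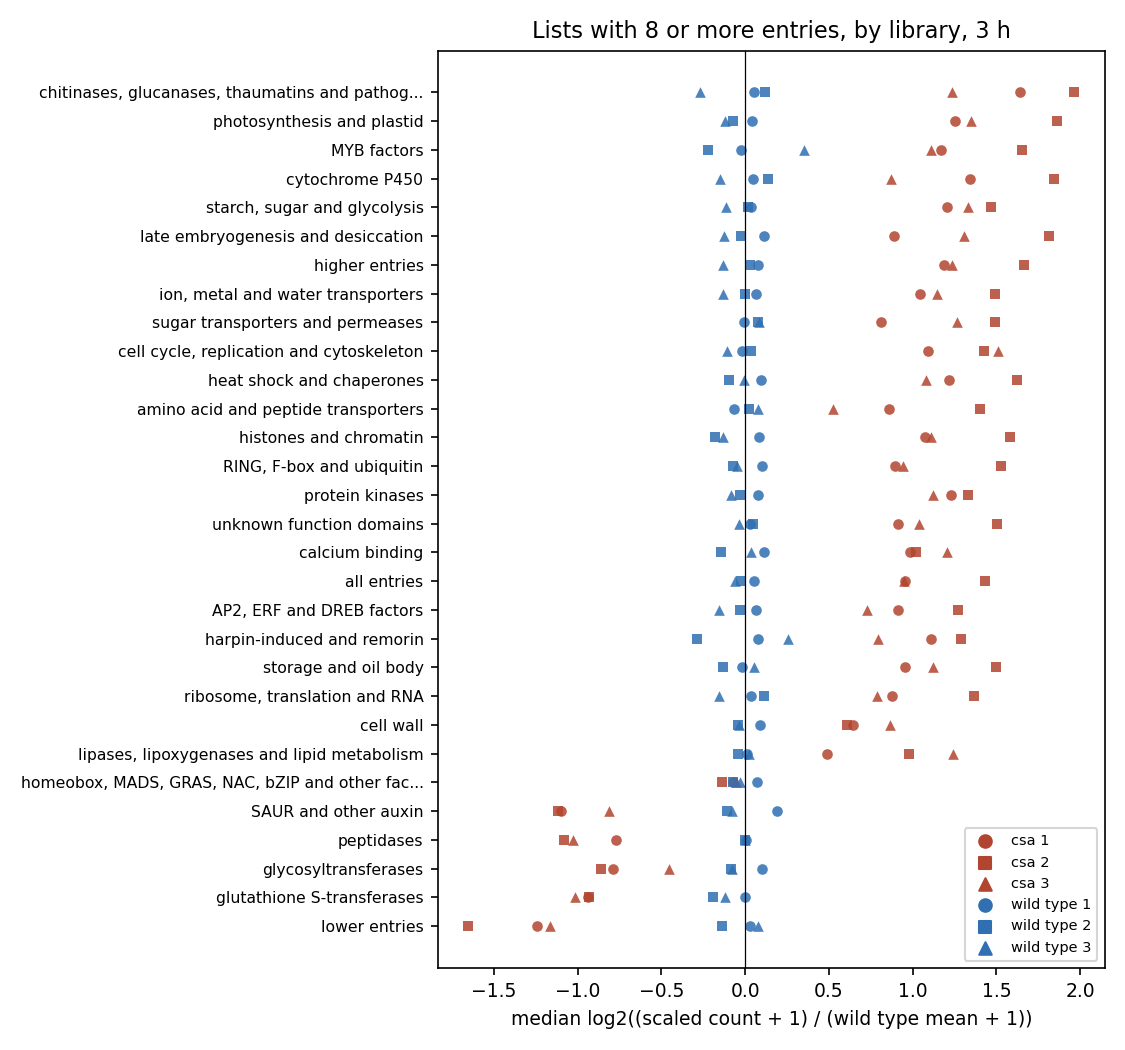
Median over the entries of each list with 8 or more members of the log2 ratio of a library's scaled count plus 1 to the wild type mean plus 1 (horizontal axis), with csa libraries in red and wild type libraries in blue. The second csa library (red squares) has a median of 1.43 over all entries, against 0.96 and 0.95 in the other csa libraries.

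The strongest contrasts in detection were genes with almost no wild type reads. The Brix domain gene LOC_Os01g05530, of a family that acts in ribosome assembly, had 75, 99 and 104 reads in csa and 0, 0 and 0 in wild type, at least 95.2-fold higher against a floor of 3 reads over the group. Its neighbour LOC_Os01g05510, a conserved hypothetical gene named for that position, had 61, 66 and 92 against 0, 0 and 0, at least 74.8-fold higher. A pyridoxal phosphate-dependent transferase gene (LOC_Os05g07720) had 39, 81 and 36 reads against 1, 0 and 2, and the NB-ARC gene LOC_Os01g16400 15, 19 and 19 against 3, 0 and 0. In all 4 genes every csa library was above every wild type library, and floors cover counting error only. No entry was at 0 in all csa libraries.

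Far lower in csa was a gene similar to protein synthesis inhibitor II (LOC_Os01g06740), a ribosome-inactivating enzyme. It had 24, 51 and 79 reads in csa against 993, 703 and 1173 in wild type, at -4.14 ± 0.49. An arginyl-tRNA synthetase-like gene (LOC_Os01g06510), for an enzyme that loads arginine onto its tRNA, had 17, 9 and 6 against 117, 101 and 130, at -3.37 ± 0.44.

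Several of these genes lie close together at the start of chromosome 1. RefSeq's protein-coding genes were divided, in order, into 10 equal parts per chromosome. The first part of chromosome 1 held 39 entries among 406 genes, or 9.61%, and the next highest part, on chromosome 10, 6.17%. The 39 split into 21 higher and 18 lower. The libraries did not overlap in 39 of the 39, near the 742 of the other 770 placed entries and the 1009 of all 1050. The median absolute log2 ratio of the 39 was 2.05 against 1.32 in the other 770 placed entries, and 53.8% against 14.4% had an absolute value of at least 2. These shares are descriptions of a region chosen after the values were seen.

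Neighbours in that stretch went in opposite directions. Among 5 class I small heat shock genes in a row, HSP16.6 (LOC_Os01g04340) had 433, 638 and 548 reads in csa against 145, 123 and 145, at 2.05 ± 0.20. The next gene, HSP17.9B (LOC_Os01g04350), had 753, 663 and 992 against 2770, 2631 and 2750, at -1.69 ± 0.17. HSP16.9C (LOC_Os01g04360) followed with 1716, 1867 and 1071 against 496, 446 and 468, at 1.80 ± 0.25. The other two, LOC_Os01g04370 and LOC_Os01g04380, stood at 1.11 and 1.05 and carry the same annotation, so that reads may be shared between them. Both calls were lost without wild type replicate 2 or 3, at 1.008 to 1.09, and the second also without csa replicate 2, at 0.991. Of the proteins these genes encode, small heat shock proteins are known to keep unfolding proteins from clumping.

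The deposited lists at 6 h and 12 h come from other libraries. At 6 h the authors called 10.3% of the genes tested, 6.03% as higher and 4.3% as lower in csa, and at 12 h 0.4%. Of the 3 h accessions 327, or 31.2%, were also listed at 6 h, which is 13.7% of the 6 h list, and 282 of them had the same direction. At 12 h 29 were listed again, 25 in the same direction. The start of chromosome 1 recurred more often: 28 of its 39 entries, or 71.8%, were listed at 6 h against 29.9% of the other placed entries, and 28 of the 28 kept their direction. At 12 h 9 were listed, 8 in the same direction. LOC_Os01g05530 again had 123, 96 and 142 reads against 0, 0 and 0 at 6 h, and 50, 112 and 64 against 1, 0 and 0 at 12 h.

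Over all entries 328, or 31.2%, recurred at 6 h, 283 of them in the same direction. LEA and desiccation genes recurred in 15 of 25 entries (60%), heat shock and chaperone genes in 8 of 16 (50%) and peptidases in 5 of 9 (55.6%). Ubiquitin system genes, at 8 of 22 (36.4%), were near the share of all entries. None of these changed direction. Of 16 glycosyltransferase entries 6 (37.5%) recurred, 2 of them in the same direction. Peroxidases and pentatricopeptide repeat genes recurred in 0 of 7 entries each. These counts are small, and differences between lists were not tested. A gene missing from a list at another time was not called there, which does not show that it was unchanged.

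**Figure D5:**
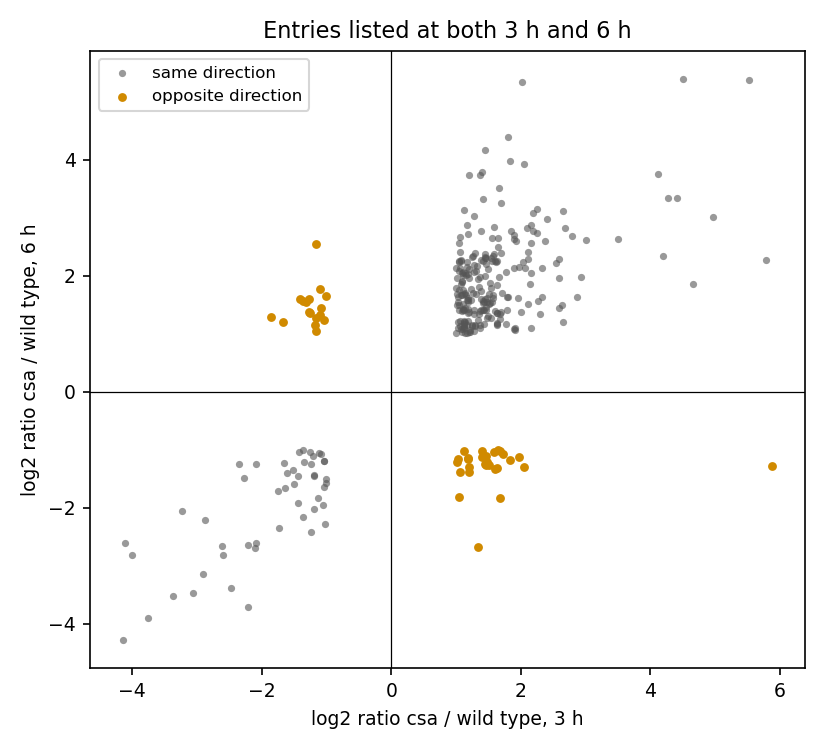
Log2 ratio of mean scaled counts (csa over wild type) at 3 h (horizontal axis) and at 6 h (vertical axis) for the entries listed at both times, from separate libraries. Grey points have the same direction at both times and orange points the opposite one; both axes leave out values between -1 and 1 because only called genes are listed.

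In 45 accessions the direction at 6 h was opposite, with 17 lower at 3 h and higher at 6 h and 28 the other way round. The auxin glucosyltransferase-like gene LOC_Os09g34230 stood at -1.25 ± 0.17 at 3 h and at 1.36 ± 0.29 at 6 h, where it had 5040, 5839 and 4760 reads in csa against 2671, 2023 and 1567. A proline oxidase gene (LOC_Os10g40360), for an enzyme that breaks down proline, had 368, 338 and 313 reads against 1062, 700 and 825 at 3 h. At 6 h it had 136, 237 and 170 against 108, 57 and 50, and so moved from lower to higher in csa. The peptide transporter gene LOC_Os01g67630 had 167, 141 and 69 against 41, 65 and 51 at 3 h, and 114, 165 and 105 against 800, 1041 and 673 at 6 h. The 3 h call of this gene was lost without csa replicate 1 or wild type replicate 1, at 1.10 and 1.20. In it the csa counts were close at both times and the wild type counts were not, although counts of different times were scaled separately.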

How the data were processed

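Embryo RNA of 3 csa and 3 wild type samples at 3 h was sequenced on an Illumina instrument, per the labels' protocols. Per the file headers, the authors deposited raw read counts for each library. The authors' deposited log2 fold change, p-value and FDR stand beside these, for called genes only. The submitters' processing notes name DESeq2 with no version. Aligner, counter, strand setting and build: not given in the sources used here. Columns were matched to samples by name, with 0 left over.

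Library scaling was recovered by least squares from the deposited log2 fold changes, with a residual SD of 0.000378 and factors from 0.945 to 1.04. Unscaled mean counts shift the median log2 ratio by -0.075, with 0 sign changes. RefSeq (ASM3414082v1) matched 826 entries (78.7%) and gave names and gene order only. Totals over the listed entries were 693479 to 755918 counts in wild type and 849885 to 1241160 in csa; they are not library depth. Entries were refitted with edgeR 4.0.16 and DESeq2 1.42.0 in R 4.3.3; a call was kept when its p was at most 0.00694, its absolute log2 fold change at least 1 and its direction unchanged. Both fits were also run on simulated counts with the same spread for all entries and most entries unchanged. The listed entries differ in both respects, so that run does not test the refits of them. Outside the replicate block setting, replicate numbers were not used to pair the samples, and whether they mark pairs was not tested.

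The entries, the 40 lists (search terms on the annotation text) and the settings were chosen with earlier results of these data known. Named genes carry a descriptive annotation and were taken by rule. Per direction these were the 8 with the largest ratio without overlap and at least 100 counts in the higher group, the 6 with the highest counts, the 6 with the smallest FDR and up to 4 with the widest csa spread. Per list of at least 5 entries, the rule added up to 3 with the smallest FDR among the members without overlap. It also added up to 8 with at most 3 counts in a genotype, up to 6 of opposite direction at 6 h, and LOC_Os09g28400. Exceptions are marked.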

Additional observations from a re-analysis of the deposited data

Results flagged for a closer look

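For 10 named genes the csa and wild type libraries did not overlap at 3 h nor at a later time, and the direction was opposite between the times. The difference between the times was not tested. Given as the 3 h minus the 6 h log2 ratio, it was -2.60 for the auxin glucosyltransferase-like gene LOC_Os09g34230, -2.65 for the proline oxidase gene LOC_Os10g40360, -2.87 for the UDP-glucosyltransferase gene LOC_Os01g45110 and -2.43 for the GST6-like gene LOC_Os09g20220. These 4 were lower in csa at 3 h and higher at 6 h.

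The same difference was 2.73 for the uricase-like gene LOC_Os01g64520, 3.35 for the CER1-like gene LOC_Os02g56920, 2.62 for the DREB2-like gene LOC_Os06g11860 and 4.01 for the peptide transporter gene LOC_Os01g67630, all higher in csa at 3 h and lower at 6 h. The small heat shock gene LOC_Os01g04350 was lower at 3 h and higher at 12 h, with a difference of -3.89. At 12 h csa had 204, 219 and 213 reads, against 56, 19 and 67. The difference was 7.16 for LOC_Os01g36580, which has a domain of unknown function, was higher at 3 h and lower at 6 h, and rests on 1 wild type read at 3 h. Genes called in opposite directions were one of the grounds for naming, so this count is not a share of all genes.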

How the results depend on the processing

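Of 1050 calls, edgeR kept 1003, DESeq2 940, edgeR on unscaled counts 905 and a minimum mean count of 20 left 856. The replicate block kept 1006. Same-numbered deviations from the group means correlated at -0.0454, 0.224 and 0.244, and differently numbered ones at -0.300 to 0.110. Deviations from means of 3 libraries cannot decide whether the numbers mark shared batches, and this was not tested. Leaving out 1 library kept 655 to 926 calls, 465 to 659 of the 746 higher and 187 to 267 of the 304 lower ones. The kept calls numbered 655 without csa replicate 2 (468 higher, 187 lower) and 679 without wild type replicate 3 (465 higher). The lower ones numbered 199 without csa replicate 1 and 201 without wild type replicate 1; fewer samples were left in each. Of the 148 named calls, 7 to 22 were lost without 1 library, and of 74 counts over the lists 6 to 33 moved by over 1.5 times, with 33 doing so without csa replicate 2.

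Trimmed mean (TMM) scaling over the listed entries alone centres them on 0 by construction, so the median log2 ratio moved from 1.20 to -0.0388. It kept 346 calls, 42 of them higher, and turned 14 of 148 named entries: LOC_Os07g38130 to -0.0742, LOC_Os06g27910 to -0.135, LOC_Os05g49860 to -0.0741, LOC_Os03g02780 to -0.0487, LOC_Os03g46060 to -0.167, LOC_Os11g37270 to -0.00721, LOC_Os12g07030 to -0.0831, LOC_Os01g50910 to -0.0693, LOC_Os10g41760 to -0.0575, LOC_Os05g46020 to -0.18, LOC_Os01g04370 to -0.122, LOC_Os01g04380 to -0.18, LOC_Os06g04390 to -0.251 and LOC_Os10g41490 to -0.00885. Outside that setting 0 named entries changed sign.

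Of the 188 entries with an absolute log2 fold change of at least 2 at 3 h, 69 recurred at 6 h and 11 at 12 h. Of all 1050 entries, 328 and 29 did. Promoter motifs were not run, since no promoter table was used here.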

Other observations

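Entries without an informative annotation had median log2 ratios near that of all entries, but those with no description were larger in absolute size. The 95 entries with no description held 63 higher and 32 lower entries with a median log2 ratio of 1.21, and the 166 described as hypothetical 118 and 48 with a median of 1.22. Over all entries the median was 1.20. The median absolute log2 ratio was 1.55 with no description and 1.42 in hypothetical entries, against 1.35 over all entries. An absolute value of at least 2 was reached by 27 of the 95, 28 of the 166 and 188 of all 1050. Proteins known by a domain of unknown function alone were higher in 37 and lower in 11 entries. Of the higher calls the refit kept 20 without csa replicate 2, and 22 and 23 without wild type replicates 2 and 3, and of the lower calls 6 without csa replicate 1. One of them, LOC_Os01g36580, had 15, 5 and 36 reads in csa against 0, 0 and 1 at 3 h, a fold of 56 in summed reads with an exact 95% counting interval of 9.65 to 2251. That interval covers counting error only and leaves out the spread between libraries. The refit gave a log2 ratio of 4.53 without csa replicate 3 and 7.25 without wild type replicate 3. At 6 h the gene had 18, 27 and 9 against 31, 56 and 50, a log2 ratio of -1.27. It was picked out after its values were seen.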
